A study of Homo sapiens with 4 samples.

Results

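CDX2 and 6 other transcription factors of the gut endoderm were followed in Huh7 cells, a human hepatoma line, in a clone that lacks TTP and BRF1 (DKO) and in a control clone. The members are CDX2, CDX1, ISX, HNF4G, GATA4, GATA6 and SOX9. They were taken by gene symbol, 7 of the 42169 gene rows of the deposited count table, and they were chosen by a proposal made with the difference in CPM between the DKO and control libraries already known. Their own differences between the clones are therefore given as a description, with no test.

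The DKO cells were clone 18, with the genes for TTP (ZFP36) and BRF1 (ZFP36L1) knocked out, and the control cells were clone 1, labelled wild type. Each clone gave 2 libraries of total RNA. Cells of both clones received DMSO for 3 h and then 5 µg/ml of the transcription blocker actinomycin D for 10 min before harvest. Each genotype is 1 clone, so genotype and clone cannot be told apart, and no label says that libraries of the same clone are separate cultures.

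CDX2 and CDX1 are homeobox factors that set intestinal identity, and CDX2 is the factor whose loss in mouse gut epithelium turns intestinal towards gastric or oesophageal character. ISX is an intestinal homeobox factor, HNF4G is the paralogue of the liver and gut nuclear receptor HNF4A, GATA4 and GATA6 are zinc finger factors of early endoderm, and SOX9 marks progenitors of the intestinal crypt and the bile duct. TTP and BRF1 bind AU-rich elements in 3′ UTRs, of which UAUUUAU is the core, and bring about the decay of the mRNA.

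Gene counts totalled 10271428 and 16430228 in the DKO libraries and 9685798 and 12507263 in the control libraries. ZFP36 mRNA was at 37.5 and 36.2 CPM (CPM, a gene's count scaled to a common library total of all gene counts) in the DKO libraries, against 30.0 and 23.3 CPM in the control libraries, and ZFP36L1 at 147 and 118 CPM in the DKO libraries, against 135 and 109 CPM in the control libraries, so mRNA levels do not check the knockout, which need not remove the transcript. The hepatocyte marker ALB, the serum albumin gene, was abundant in both clones, at 7560 CPM in DKO and 7394 CPM in control (means, n = 2 each). Levels differed widely between hepatocyte markers. Per kilobase of exon, mean ALB was at 2239 CPM in DKO and 2190 CPM in control, and mean CPS1 at 0.191 and 0.335 CPM. Of 32 intestinal effector genes listed, 4 had no count in any library, among them the goblet cell mucin MUC2 and the enterocyte fatty acid binding protein FABP2. The label of a gut programme therefore covers part of these cells' expression, beside a hepatocyte background. With bulk RNA, fewer cells of a type and less RNA per cell cannot be told apart.

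CDX2 (ENSG00000165556, chromosome 13, 27962137 to 27971139, minus strand, hg38) was the member with the largest difference. It stood at 11.4 and 13.6 CPM in the DKO libraries, against 41.7 and 48.4 CPM in the control libraries. Both DKO libraries lay far below both control libraries, and the gap was much wider than the spread within either clone. The means were 12.5 ± 1.54 CPM in DKO and 45.0 ± 4.71 CPM in control (SD, n = 2 each), 3.61-fold lower in DKO, a log2 difference of -1.84 (SE 0.22). These levels rest on 117 and 223 reads in the DKO libraries and 404 and 605 reads in the control libraries. Leaving out each library in turn gave log2 differences from -1.997 to -1.69.

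CDX1 (chromosome 5, 150166795 to 150184558), the closest relative of CDX2, had 0 reads in both DKO libraries, and 0 reads in control replicate 1 and 1 read in control replicate 2. A count of 0 allows up to 3 reads, which is 0.292 and 0.183 CPM in the DKO libraries and 0.310 CPM in control replicate 1. CDX1 was thus not detectable above this floor in either clone, did not pass the filter on low counts and has no fold change. The third CDX gene, CDX4, had no count in any library.

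ISX (chromosome 22, 35066136 to 35087387), which in the mouse intestine is known to repress the carotenoid genes Bco1 and Scarb1, was also lower. It had 11.6 and 8.64 CPM in the DKO libraries, against 21.1 and 21.6 CPM in the control libraries. The groups did not overlap, and the DKO libraries differed more between themselves than the control libraries did. The means were 10.1 ± 2.08 CPM in DKO and 21.3 ± 0.372 CPM in control (SD, n = 2 each), a log2 difference of -1.08 (SE 0.24).

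HNF4G (chromosome 8, 75407914 to 75566843), a receptor that acts beside HNF4A at enterocyte genes, was at 8.18 and 5.30 CPM in the DKO libraries, against 13.9 and 8.63 CPM in the control libraries. The groups did not overlap, but the higher DKO library lay close to the lower control library. The log2 difference was -0.74 (SE 0.30), and it was -0.41 without control replicate 1, -0.46 without DKO replicate 2 and -1.04 without either of the other libraries. This was the widest such range among the 6 tested members.

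The paired endoderm factors GATA4 and GATA6 stood on opposite sides. GATA6 (chromosome 18, 22169443 to 22202528) had 36.2 and 37.9 CPM in the DKO libraries, against 57.2 and 67.2 CPM in the control libraries, a log2 difference of -0.74 (SE 0.20). GATA4 (chromosome 8, 11676959 to 11760002) had 114 and 110 CPM in the DKO libraries, against 73.8 and 95.1 CPM in the control libraries, a log2 difference of 0.41 (SE 0.20). GATA4 was at 0.21 without control replicate 1 and 0.63 without control replicate 2. Neither gene's groups overlapped, and for GATA4 the control libraries differed more from each other than the DKO libraries did. With ERCC spike-in totals as library sizes, GATA4 was at -0.31 (SE 0.53) and GATA6 at -1.45 (SE 0.53), so the sign of the GATA4 estimate depends on the scaling. That scaling moved the median gene by -0.68, and relative to the median gene GATA4 was at 0.37 and GATA6 at -0.77.

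SOX9 (chromosome 17, 72121020 to 72126420) had 223 and 238 CPM in the DKO libraries, against 173 and 175 CPM in the control libraries. The libraries of each clone lay close together, and the DKO libraries were above the control libraries. The log2 difference was 0.42 (SE 0.19), or -0.28 (SE 0.53) with ERCC totals, which is 0.40 above the median gene of that scaling.

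**Figure D1:**
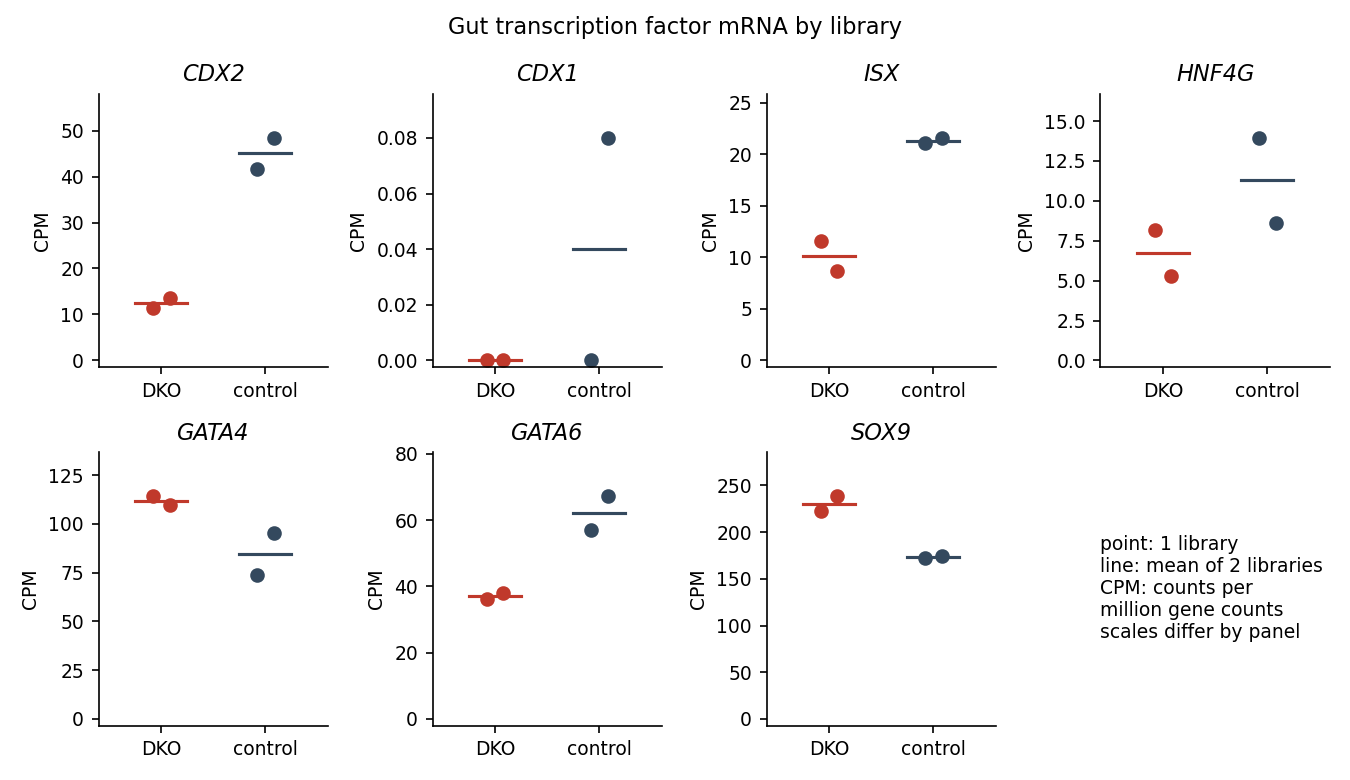
Levels of the 7 factors in each library, in CPM on a linear axis whose scale differs by panel; points are libraries and lines are means of 2. DKO libraries lie below control libraries for CDX2, ISX, HNF4G and GATA6 and above them for GATA4 and SOX9, and CDX1 has 1 read in all 4 libraries together.

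Of the 6 members that passed the filter on low counts, 3 (CDX2, ISX and GATA6) were past an adjusted p of 0.05 in the edgeR fit, each lower in DKO, where 5.37% of the 13359 genes tested were (2.24% higher and 3.14% lower in DKO). The groups of all 6 did not overlap, with 4 lower and 2 higher in DKO, where 49.9% of genes tested did not overlap (26.2% lower and 23.7% higher in DKO). Since the members were chosen with this contrast known, nothing is read from either count.

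Per kilobase of exon the order of levels was the same in both clones. In DKO the means were 58.6 CPM per kb for SOX9, 25.2 for GATA4, 9.40 for GATA6, 3.03 for CDX2, 2.99 for ISX, 1.40 for HNF4G and 0 for CDX1. In control they were 44.1 CPM per kb for SOX9, 19.0 for GATA4, 15.8 for GATA6, 10.9 for CDX2, 6.30 for ISX, 2.35 for HNF4G and 0.0227 for CDX1. CDX2 and ISX overlapped between libraries in DKO (2.76 and 3.29 against 3.42 and 2.55 CPM per kb), while in control CDX2 (10.1 and 11.7) lay above ISX (6.22 and 6.38). GATA4 (16.6 and 21.4) and GATA6 (14.5 and 17.02) overlapped in control, and in DKO GATA4 (25.7 and 24.7) lay above GATA6 (9.18 and 9.61). The other neighbours in the order did not overlap within a clone. Exon lengths are unions over all annotated exons, so transcripts that use fewer exons are understated.

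Neighbouring genes on the chromosome were measured beside the members. The 50 tested genes around CDX2, over 16.3 Mb, had a median log2 fold change of 0.21. Their values ran from -0.83 to 0.70, with 15 negative and 0 called in either direction. Closer by, URAD, 6575 bases from CDX2, had 0 reads in both DKO libraries and 4 and 3 in the control libraries. LINC00543, 6767 bases away, had 4 and 16 reads in DKO and 4 and 10 in control, and neither gene passed the filter on low counts. CDX2 lies in the ParaHox cluster with PDX1, the pancreatic and duodenal homeobox factor (chromosome 13, 27920020 to 27926231). PDX1 had 3.31 and 2.80 CPM in DKO, against 5.16 and 5.68 CPM in control, a log2 fold change of -0.83 (SE 0.31), short of the threshold (edgeR adjusted p = 0.135). The medians around ISX, GATA6 and SOX9 were -0.03, -0.01 and -0.15. Those around HNF4G and GATA4, both on chromosome 8, were -0.20 and 0.32, each on the same side of 0 as its gene, and 9 of the 44 neighbours of GATA4 were negative. The part of these neighbourhoods in the values of HNF4G and GATA4 was not tested.

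Antisense genes that overlap members had few reads. GATA6-AS1, which overlaps the start of GATA6, had 8 and 13 reads in the DKO libraries and 17 and 16 in the control libraries, beside 372 and 623 reads on GATA6 in DKO and 554 and 840 in control. SOX9-AS1, whose annotation spans SOX9, had 15 and 30 reads in DKO and 12 and 10 in control, beside at least 1671 reads on SOX9 in each library. Whether reads were counted by strand is not known from the labels, so reads of a gene and its antisense partner may not have been told apart.

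The 3′ UTRs of the members were searched for TATTTAT, the DNA spelling of the UAUUUAU core to which TTP and BRF1 bind. The longest annotated 3′ UTR of each was used. The motif was in 1 of the 7, SOX9, where it occurred 2 times in 2033 bases, and 36.1% of 11902 tested genes with a 3′ UTR held it. CDX2 (978 bases), CDX1 (878), ISX (1694), HNF4G (2747), GATA4 (1527) and GATA6 (1705) had 0 matches. Of the genes that rose, 33.1% held the motif (90 of 272 with a 3′ UTR), and of those that fell 29.7% did (119 of 401). These shares depend on length: the median 3′ UTR was 1145.5 bases for genes that rose, 1671 for those that fell and 1662 over all. Per kilobase there were 0.344 matches in genes that rose, 0.229 in those that fell and 0.29 over all genes tested. A match is a description of the letters and not a measured binding site. The SOX9 stretches, from chromosome 17 on the plus strand, are shown because they are the motif matches among the members, with the motif in capitals; the first, chr17:72125498-72125526, also spells the longer TTATTTATT, and the second is chr17:72125658-72125686.
SOX9 site 1: cttgctaaaatTATTTATtttgtaaggag
SOX9 site 2: cagttttttttTATTTATctctttaatct

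Genes whose level followed CDX2 across the 4 libraries were then ranked by the distance between profiles of log2(CPM + 1), each centred on its mean. The closest 5 of 13358 genes were RBP2, ARHGAP22, MYO1A, LINC00665 and USH1C, at distances of 0.120, 0.145, 0.147, 0.174 and 0.185. RBP2, the intestinal cellular retinol binding protein, had 1.17 and 1.34 CPM in DKO, against 5.68 and 7.04 CPM in control. MYO1A, a brush border myosin, had 2.34 and 2.98 CPM in DKO, against 11.3 and 14.2 CPM in control. USH1C, a scaffold protein of the tips of microvilli, had 8.66 and 8.64 CPM in DKO, against 30.5 and 32.8 CPM in control. ARHGAP22 had 0 and 0.0609 CPM in DKO (0 and 1 reads), against 2.17 and 2.48 CPM in control, so its distance depends on the pseudocount of 1. LINC00665, a long noncoding RNA, had 1.95 and 2.43 CPM in DKO, against 8.88 and 9.11 CPM in control. The pseudocount also shrinks the differences of RBP2, MYO1A and LINC00665, which had low levels. Without it, mean control levels were 5.07, 4.78 and 4.11 times the DKO levels for these genes, against 3.61 times for CDX2. For USH1C they were 3.65 times. The small distances of RBP2, MYO1A and LINC00665 therefore depend on the pseudocount too, and ranks under another pseudocount were not tested. The 4 libraries form 2 clones, so a small distance says little beyond a similar difference between clones on this scale. Among the members the next closest were ISX, at rank 221, and GATA6, at rank 454.

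**Figure D2:**
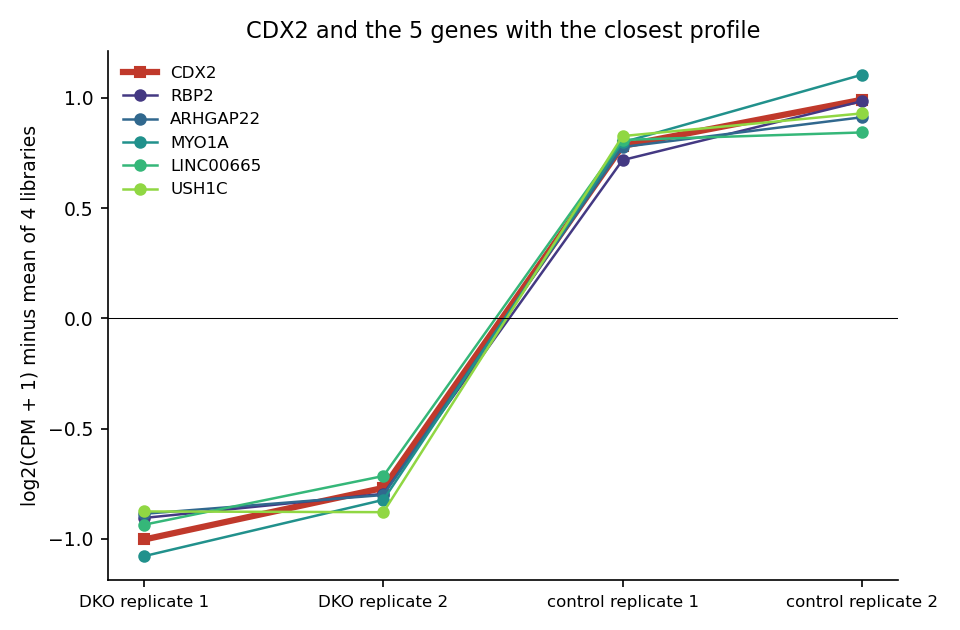
Profiles of CDX2 and its 5 closest genes, as log2(CPM + 1) minus the mean of the 4 libraries; lines join the points of 1 gene and imply no order of libraries. All 6 lie below 0 in both DKO libraries and above 0 in both control libraries.

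The listed intestinal effector genes, of enterocytes and intestinal epithelium, include several known targets of CDX2 or HNF4 factors. Of 32 listed, 23 were tested, and 10 fell, 0 rose and 13 did not pass (43.5% called, against 5.37% of all genes tested). Their median log2 fold change was -0.81, against 0.0015 over all genes tested. The list was chosen with earlier results of these data known, so these counts are a description. CDH17, IHH and USH1C were on it with their fall already known. Without them 7 of 20 fell and 0 rose, with a median of -0.58.

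The disaccharidase gene SI, which CDX2 is known to activate, fell to 0.487 and 0.183 CPM in the DKO libraries, against 14.1 and 9.43 CPM in the control libraries. The log2 fold change was -5.21 (SE 0.44, edgeR adjusted p = 6.05e-06), and the DKO values rest on 5 and 3 reads. GUCY2C, the intestinal receptor for guanylin, fell to 0.389 and 0.609 CPM in DKO, against 12.4 and 12.0 CPM in control (-4.51, SE 0.37, edgeR adjusted p = 4.31e-06). In these DKO libraries 3 reads make 0.292 and 0.183 CPM, so the DKO values of GUCY2C also rest on few reads. CDH17, the liver-intestine cadherin and a known CDX2 target, fell to 4.87 and 3.47 CPM in DKO, against 90.4 and 84.8 CPM in control (-4.40, SE 0.24, edgeR adjusted p = 6.10e-08). HEPH, a ferroxidase with a part in iron export from enterocytes, fell to 0.487 and 0.304 CPM in DKO, against 5.68 and 6.80 CPM in control (-4.00, SE 0.43, edgeR adjusted p = 7.05e-05), and its DKO values rest on 5 reads each. For each of these 4 genes the control libraries were more than 10 times the DKO libraries, while CDX2 itself differed 3.61-fold.

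The hedgehog ligand IHH (-2.58), MYO1A (-2.23), USH1C (-1.86), the microvillar protocadherin CDHR5 (-1.58), the membrane mucin MUC13 (-1.14) and the brush border protease MEP1A (-0.81) also fell, with edgeR adjusted p from 4.85e-05 for IHH to 0.0255 for MUC13. Of the 10, 7 passed without DKO replicate 1 (not MUC13, MEP1A or CDHR5), 8 without DKO replicate 2 (not MUC13 or MEP1A) and 10 without either control library. VIL1, the actin bundler of microvilli, did not pass, at 403 ± 22.8 CPM in DKO and 452 ± 13.3 CPM in control (SD, n = 2 each, log2 fold change -0.16, edgeR adjusted p = 0.719). DPP4 (0.02) and EPS8L3 (0.01), also of the brush border, did not pass either. The effector genes thus ranged from a difference of over 5 log2 units to values near 0, and the highest tested was the lipoprotein gene APOA4 (0.89, edgeR adjusted p = 0.179).

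**Figure D3:**
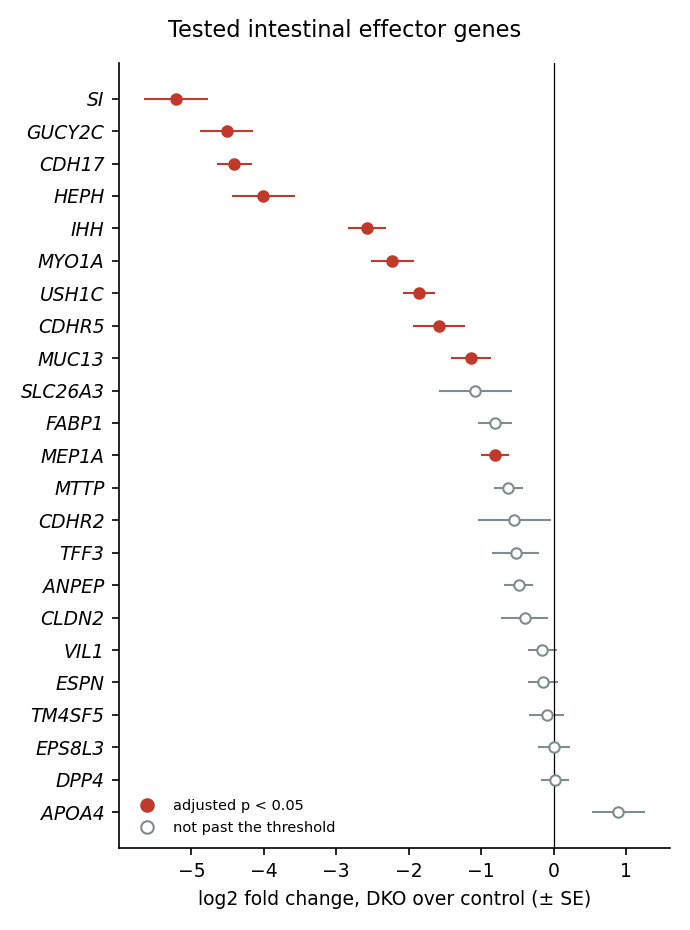
Log2 fold change of DKO over control for the 23 tested intestinal effector genes, with bars of 1 SE; filled points are past an edgeR adjusted p of 0.05. The 10 filled points run from -5.21 for SI to -0.81 for MEP1A, and open points include VIL1, DPP4 and EPS8L3 near 0.

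Promoters were searched for short motifs of the members and of HNF1, on both strands, from 250 bases before to 50 bases after each RefSeq start (GRCh38.p14). The motifs were TTTATTG and TTTATG for CDX factors, CAAAGTC for HNF4, AGATAA for GATA and GTTAAT for HNF1, and no CDX spelling contains another. Of 35116 promoters, 4% held TTTATTG, 10.6% TTTATG, 13.7% either of these, 3.37% CAAAGTC, 10.3% AGATAA and 6.88% GTTAAT. Entries were found for CDX2, ISX and GATA6 among the members and for 6 of the 10 effector genes that fell. CDX2 held TTTATTG at -181 to -175 and AGATAA at -119 to -114 from the start, each on the opposite strand, and GTTAAT at -3 to 3. ISX and GATA6 held none of the 5 spellings. Of the 6 effector genes, SI (1 entry), MYO1A (2 entries) and HEPH (3 entries) held a CDX spelling in at least 1 entry. MYO1A held it in entry 1 only, and HEPH in entries 2 and 3. MUC13 and MYO1A held CAAAGTC. The shares of promoters above are per entry, so they are not a like measure for genes with several entries. SI held 4 CDX matches, with TTTATTG at -52 to -46 on the opposite strand and TTTATG at -43 to -38. These matches describe letters in a window and no binding was measured.

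RBP2, the gene closest to CDX2 in profiles of log2(CPM + 1), held CAAAGTC and AGATAA. The 250 bases before the start are shown for CDX2, for SI with its 4 CDX matches and for RBP2. Each lies on the minus strand, at chr13:27969316-27969565 for CDX2, chr3:165078497-165078746 for SI and chr3:139476517-139476766 for RBP2, and is written 5′ to 3′ in the direction of the gene, with whole motif matches in capitals.
CDX2 promoter: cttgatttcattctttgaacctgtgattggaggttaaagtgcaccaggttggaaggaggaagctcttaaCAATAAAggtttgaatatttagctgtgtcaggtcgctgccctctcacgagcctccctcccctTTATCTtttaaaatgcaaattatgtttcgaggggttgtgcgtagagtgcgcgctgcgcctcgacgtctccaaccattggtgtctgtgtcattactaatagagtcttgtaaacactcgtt
SI promoter: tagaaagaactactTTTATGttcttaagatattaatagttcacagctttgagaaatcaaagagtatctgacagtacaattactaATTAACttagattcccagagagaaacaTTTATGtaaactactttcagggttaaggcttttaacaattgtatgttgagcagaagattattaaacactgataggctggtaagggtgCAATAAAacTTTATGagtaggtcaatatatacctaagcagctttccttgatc
RBP2 promoter: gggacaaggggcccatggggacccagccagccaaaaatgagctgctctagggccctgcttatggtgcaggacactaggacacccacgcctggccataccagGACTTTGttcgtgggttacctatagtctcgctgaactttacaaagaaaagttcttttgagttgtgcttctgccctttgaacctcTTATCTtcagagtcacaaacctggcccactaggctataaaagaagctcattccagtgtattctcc

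Other transcription factors known from the gut included 4 that fell. Of 22 listed intestinal factors 12 were tested, and 4 fell, 0 rose and 8 did not pass (33.3% called, against 5.37% of all genes tested; median log2 fold change -0.13). KLF5, a zinc finger factor of dividing crypt cells, fell to 26.5 and 22.3 CPM in DKO, against 81.9 and 77.2 CPM in control (-1.70, SE 0.20, edgeR adjusted p = 0.000162). MAF, a leucine zipper factor of enterocyte maturation in the mouse, fell to 21.5 and 15.6 CPM in DKO, against 48.5 and 53.3 CPM in control (-1.46, SE 0.22, edgeR adjusted p = 0.00145). PRDM1, a repressor of the fetal gut epithelium in the mouse, fell to 0.876 and 0.730 CPM in DKO, against 4.54 and 3.84 CPM in control (-2.37, SE 0.39, edgeR adjusted p = 0.00293). The vitamin D receptor VDR fell to 0.0974 and 0.365 CPM in DKO, against 2.27 and 1.52 CPM in control (-2.79, SE 0.59, edgeR adjusted p = 0.0132), and did not pass without DKO replicate 1 (-2.29, edgeR adjusted p = 0.143). The DKO values of VDR rest on 1 and 6 reads. HES1, the Notch target, had the highest value of the list at 0.65 and did not pass (edgeR adjusted p = 0.0664). The 3′ UTRs of KLF5 (1656 bases) and VDR (3209) held TATTTAT 1 time each, that of PRDM1 (2453) 4 times and that of MAF (4450) 0 times. At least 1 match was held by 36.1% of tested genes with a 3′ UTR, of median length 1662 bases, and by 29.7% of those that fell. Nothing is read from these 4 genes.

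Of 25 endoderm and liver factors 22 were tested, and 0 rose and 0 fell in edgeR and in DESeq2. Before adjustment, 4 had an edgeR p under 0.05, each lower in DKO. The share of all genes tested under this limit is not given here, so nothing is read from that count. The median of the 22 was -0.08, and values ran from -0.83 for PDX1 to 0.57 for MIXL1. HNF4A, the paralogue of HNF4G and a central factor of both liver and gut, was at 345 and 340 CPM in DKO, against 463 and 497 CPM in control. The difference of -0.48 on the log2 scale (SE 0.20) did not pass (edgeR adjusted p = 0.181), although the groups did not overlap. Per kilobase HNF4A was at 46.8 CPM in DKO and 65.7 CPM in control, far above HNF4G in both clones. Of the 8 paralogues listed, HNF4A, GATA2 (0.14) and GATA3 (-0.36) were tested and 0 passed in edgeR or DESeq2. Before adjustment, HNF4A had an edgeR p under 0.05. GATA1, CDX4 and SOX10 had no count.

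**Figure D4:**
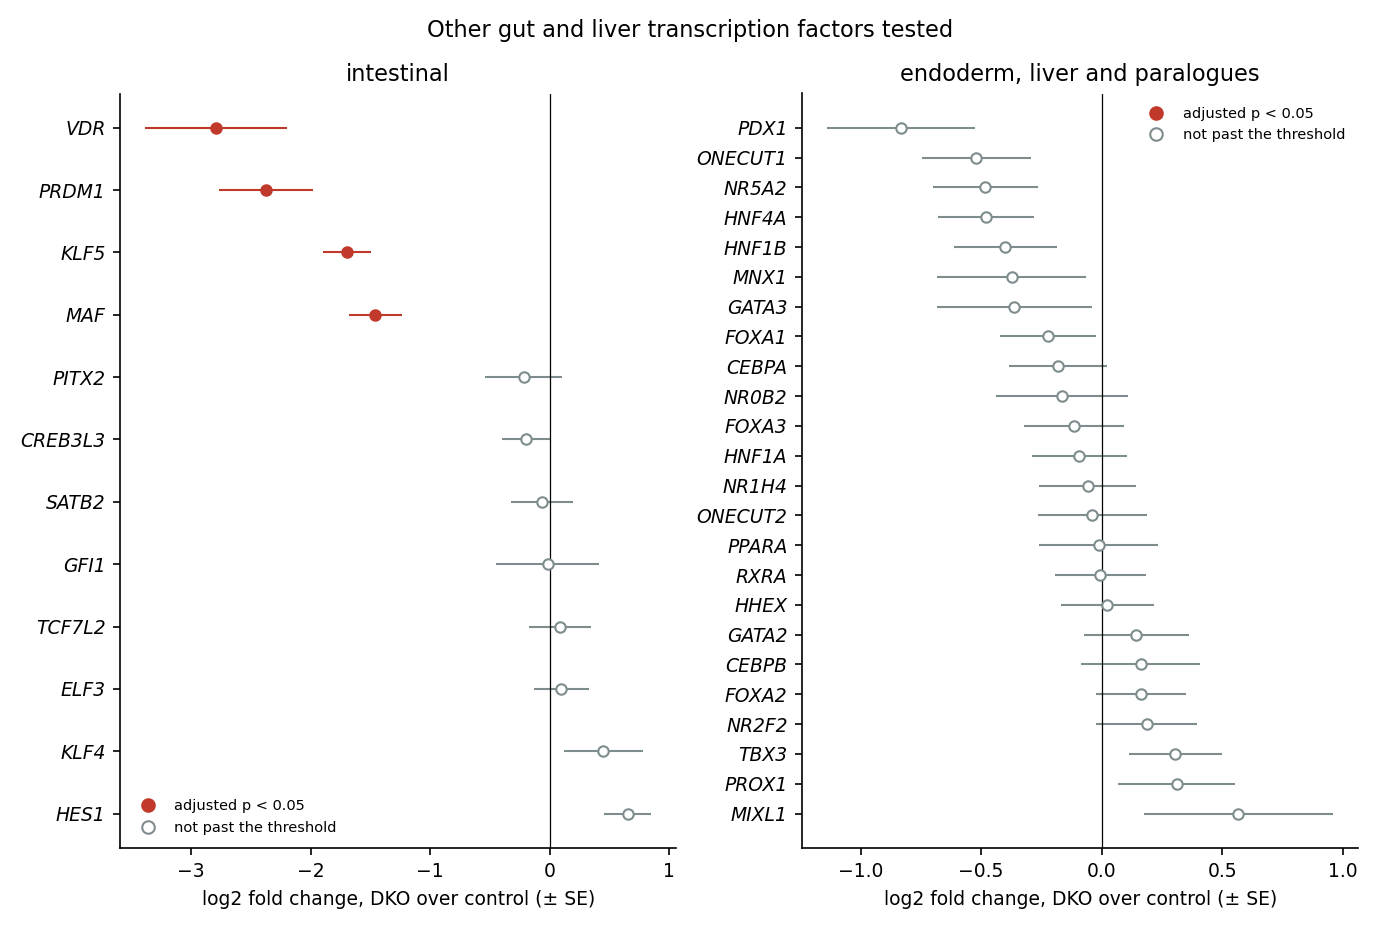
Log2 fold change of DKO over control, with bars of 1 SE, for tested intestinal factors (left) and for endoderm and liver factors with the members' paralogues (right, on a narrower axis). VDR, PRDM1, KLF5 and MAF are past an edgeR adjusted p of 0.05, and no point on the right is.

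Genes of the retinoid pathway, in which ISX acts in the intestine, were examined as 15 symbols, of which 14 were in the table and 10 were tested, and 3 fell, 0 rose and 7 did not pass (30% called, against 5.37% of all genes tested; median log2 fold change -0.18). RBP2 fell (-2.31, SE 0.35, edgeR adjusted p = 0.00145). The retinoic acid receptor RARB, itself induced by retinoic acid, fell to 1.66 and 2.43 CPM in DKO, against 7.43 and 6.56 CPM in control (-1.72, SE 0.32, edgeR adjusted p = 0.00654), and was short of the threshold without DKO replicate 1 (-1.48, edgeR adjusted p = 0.0615). Of the genes ISX is known to repress in mouse intestine, BCO1 had no count and SCARB1 did not pass (-0.12, SE 0.19, edgeR adjusted p = 0.789).

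SOX9 targets and biliary markers moved in both directions. Of 15 listed, 8 were tested, and 1 rose, 2 fell and 5 did not pass (37.5% called, against 5.37% of all genes tested; median log2 fold change -0.51). The osteopontin gene SPP1, a SOX9 target in liver, rose to 52.7 and 62.6 CPM in DKO, against 8.16 and 8.95 CPM in control (2.76, SE 0.23, edgeR adjusted p = 4.99e-06). The cartilage collagen COL2A1, a SOX9 target in chondrocytes, fell to 334 and 385 CPM in DKO, against 752 and 1283 CPM in control (-1.50, SE 0.26, edgeR adjusted p = 0.00429). The progenitor marker PROM1 also fell (-0.76, SE 0.19, edgeR adjusted p = 0.0294), and the call was lost in the fits that left out control replicate 2 (-0.70), DKO replicate 1 (-0.76) and DKO replicate 2 (-0.76). SOX4, another SOX factor of progenitors, was at 0.02 and did not pass.

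Markers of hepatocytes and of other cell types were measured beside these lists. Of 13 hepatocyte markers, all tested, 2 rose, 1 fell and 10 did not pass (23.1% called, against 5.37% of all genes tested; median log2 fold change 0.04). The fetuin gene AHSG (1.74, edgeR adjusted p = 0.000161) and the thyroxine carrier TTR (0.78, edgeR adjusted p = 0.0297) rose and the fetal protein AFP (-1.13, edgeR adjusted p = 0.0159) fell. TTR lost its call in the same 3 fits (0.66, 0.87 and 0.70), and AFP did without DKO replicate 2 (-1.09). The summed level of the hepatocyte markers was 18161 and 18605 CPM in DKO and 21177 and 22992 CPM in control. This sum is weighted to abundant genes such as AFP, at 1088 CPM per kb of exon in DKO and 2400 in control (means). Of the 13 markers, 7 were positive and 6 negative, so the lower sum in DKO does not describe the list as a whole. Of 14 markers of fibroblasts, immune and endothelial cells, 7 were tested, and 1 rose, 0 fell and 6 did not pass (14.3% called, against 5.37% of all genes tested; median log2 fold change 0.64). It was the endothelial adhesion molecule PECAM1 (2.03, edgeR adjusted p = 0.000163). Of the 7, 5 were positive. For 4 the groups did not overlap, with DKO higher (23.7% of all genes tested), and for 1 with DKO lower (26.2%). Before adjustment 5 had an edgeR p under 0.05, 4 higher and 1 lower in DKO. The share of all genes tested under this limit is not given here, so nothing is read from that count. The summed level of these markers was 170.2 and 169.6 CPM in DKO and 104 and 149.6 CPM in control, mostly from the collagen gene COL1A2. CD3E of T cells and VWF, CDH5 and KDR of endothelium had no count, and the leukocyte marker PTPRC had at most 1 read per library.

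**Figure D5:**
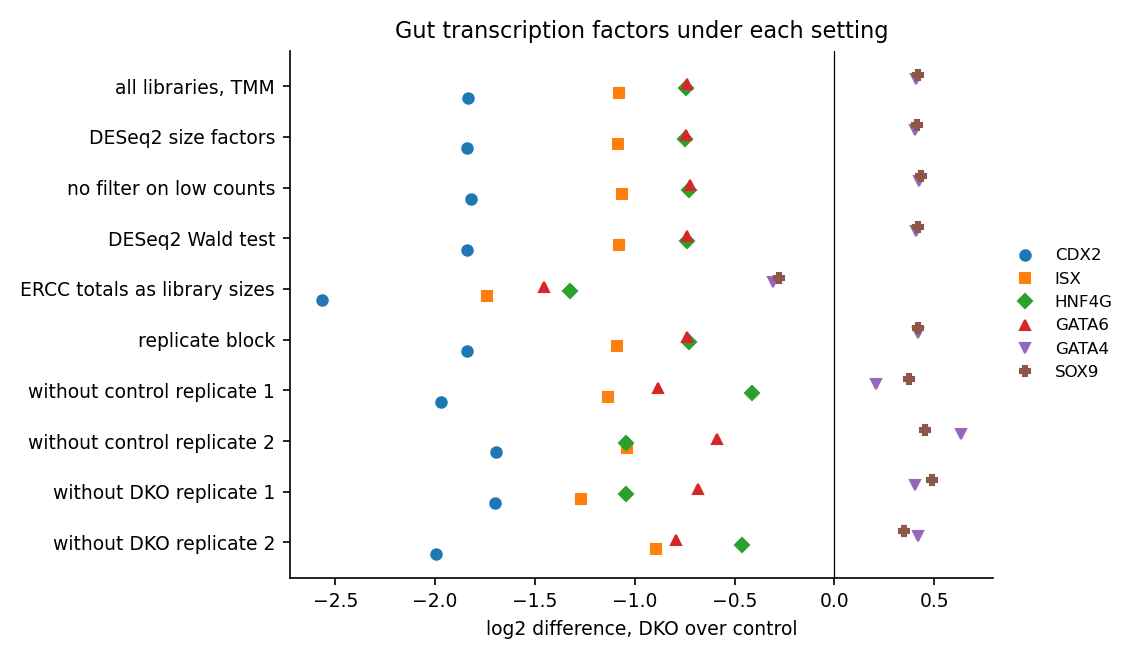
Log2 difference of DKO over control for the 6 tested factors under each setting: the fit with all libraries and TMM scaling, other scaling, filter and test, the replicate block, and each library left out. CDX2 stays between -2.57 and -1.69, and GATA4 and SOX9 are below 0 with ERCC totals and above 0 in the other settings.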

How the data were processed

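The deposited values are raw counts of reads for each gene in the 4 libraries, which the authors had not normalized. Per the labels' protocols, ERCC spike-ins were added to 1 µg of RNA before rRNA depletion, and directional libraries were sequenced as single reads of 80 bases. Named in the submitters' processing notes are STAR 2.5.3a, DESeq2, hg38 and, from Subread 1.6.3, featureCounts. No source used here gives the annotation, the strand setting or the handling of multiply mapped reads.

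From the 42169 gene rows (92 ERCC rows set aside), the clones were compared (DKO over control) by edgeR 4.0.16 under R 4.3.3 (filterByExpr, TMM, quasi-likelihood test, group as the only term, Benjamini-Hochberg over 13359 genes, threshold 0.05). Genes past it are said to rise or fall. The SE is the log2 fold change divided by the root of its F statistic. Libraries of a clone differed beyond counting noise (chi-square per degree of freedom 27.1 in DKO and 33.6 in control). Intervals and floors cover counting error only. The exact permutation p of 2 against 2 libraries cannot go below 0.333, so calls rest on the spread edgeR shares between genes, which may be technical. The edgeR step was run on simulated counts, drawn as independent libraries from the means and edgeR spread of these data. That run checks the code and not the calls.

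The members, lists and rule for named genes were chosen with earlier results of these data known. Named were the members, the targeted genes, up to 6 called members of each list (or the leading one), and the 5 genes closest to CDX2; CDHR5, MUC13, MEP1A and further uncalled genes were named after their values were seen. Some results that this rule names are not reported here. Symbols were matched to GENCODE 29 (GRCh38, the assembly of hg38), where 96.56% of rows matched exactly 1 gene. Alternatives were other size factors, no filter, DESeq2 1.42.0, ERCC totals, a replicate block and each library left out.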

Additional observations from a re-analysis of the deposited data

How the results depend on the processing

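The number of genes called was 718 (299 higher and 419 lower in DKO), 1194 with no filter on low counts, 335 with ERCC totals (20 higher and 315 lower), and from 218 to 2172 when 1 library was left out. The fit with the replicate block called 4021 of the 13359 genes tested. Of the 34 tested intestinal, endoderm and liver factors it called 11 in place of 4, and it gave CDX2 -1.84. In it all 6 tested members were past the threshold, as were HNF4A (-0.48), PDX1 (-0.84) and ZFP36 (0.49). The members were chosen with this contrast known, so nothing is read from their calls in any setting. The labels give shared numbers and no shared source, and deviations of same-numbered libraries from their clone means correlated at 0.54 across genes (Pearson's r, 13359 genes, which are not independent).

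With ERCC totals CDX2 was at -2.57, ISX at -1.74, GATA6 at -1.45, GATA4 at -0.31 and SOX9 at -0.28, and ZFP36 (-0.17) and ZFP36L1 (-0.50) turned negative. The SEs of GATA4, SOX9, ZFP36 and ZFP36L1 in this fit were 0.53, 0.53, 0.52 and 0.53, each larger than the size of its value. ERCC reads were 1.62% and 2.10% of all counts in the DKO libraries and 1.47% and 0.946% in the control libraries. Leaving out 1 library gave SOX9 from 0.35 to 0.49, and ZFP36L1 from -0.0099 (without DKO replicate 1) to 0.26. DESeq2 and DESeq2 size factors kept the 10 effector calls and the 4 factor calls, and ERCC totals kept 9 (not MEP1A) and 4. With ERCC totals AHSG, TTR, AFP, PECAM1, PROM1 and NPPB also lost their calls, and VSIG1 did not pass the filter and was not tested. Among the members, GATA6 was not past the threshold with ERCC totals, without either DKO replicate or without control replicate 2, ISX was not without either DKO replicate, and HNF4G was past it without control replicate 2. Where a value changed with a setting, the cause was not tested. Depth limits CDX1, ARHGAP22, VDR, SI and HEPH in DKO, which rest on 0 to 6 reads per library. The DKO values of GUCY2C also rest on few reads.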

Other observations

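Gastric genes were low in both clones, with 4 of 11 tested, of which 1 rose and 1 fell (50% called, against 5.37% of all genes tested; median log2 fold change -0.44). VSIG1, a junction protein of gastric epithelium, rose to 2.24 and 1.16 CPM in DKO, against 0.103 and 0.240 CPM in control (log2 fold change 3.12, SE 0.67, edgeR adjusted p = 0.0147), resting on 23 and 19 reads in DKO and 1 and 3 in control, and did not pass without DKO replicate 1 (2.65, edgeR adjusted p = 0.186). CTSE, the gastric protease cathepsin E, fell to 1.56 and 1.22 CPM in DKO, against 5.06 and 4.397 CPM in control (-1.77, SE 0.35, edgeR adjusted p = 0.00973), and did not pass without DKO replicate 2 (-1.60, edgeR adjusted p = 0.147). TFF1 (0.02) and TFF2 (-0.89), trefoil peptides of the stomach, did not pass, and the gastric factor SOX2 and mucin MUC5AC had no count.

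Of 10 partners and targets of GATA factors, 4 were tested, of which 1 rose and 1 fell (50% called, against 5.37% of all genes tested; median log2 fold change -0.02). NPPB, the natriuretic peptide gene that GATA4 activates in heart, rose to 18.1 and 26.3 CPM in DKO, against 7.95 and 11.8 CPM in control (1.17, SE 0.27, edgeR adjusted p = 0.0222), and did not pass without DKO replicate 2 (0.85) or with ERCC totals (0.40). MEF2C, a muscle and vascular transcription factor, fell to 4.87 and 4.63 CPM in DKO, against 19.2 and 10.1 CPM in control (-1.60, SE 0.30, edgeR adjusted p = 0.00708). The GATA cofactor ZFPM1 (-0.12) and the ligand BMP4 (0.07) did not pass, and the bile acid transporter SLC10A2, which GATA4 represses in mouse gut, had no count.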
